A study of Mus musculus with 2 samples.

Results

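The 33 genes described here encode the mitochondrial pyruvate carrier, the pyruvate dehydrogenase complex with its kinases and a phosphatase, enzymes of the TCA cycle, and the enzymes that add to or draw from the cycle at pyruvate, malate and citrate. They were given as a list of gene names whose rule sets no threshold on the measured values, and all 33 were found on the array through RefSeq accessions, among 20656 named genes. They were measured by 43 probes, with 1 probe for 26 genes and several for 7, and each gene was read at its brightest probe. Bone marrow-derived macrophages (BMDMs) from Crif1 f/f males aged 8 weeks, which carry a floxed Crif1 gene in both groups, were grown for 7 days with M-CSF, the growth factor that turns marrow cells into macrophages. One group was left untreated and the other received IL-4, the type 2 cytokine that drives macrophages toward the M2-like state, and the label gives 18 h for both. The group of each array was taken from its source name, since the free-text description mentions IL-4 for both. Each group was 1 single-colour Agilent array, and both arrays lay on 1 slide. No difference could therefore be tested, and the number of mice behind each of the RNA samples is not known, since the methods give mice and replicates for experiments in general and not for the arrays.

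Pyruvate enters mitochondria through the MPC carrier. There pyruvate dehydrogenase turns it into acetyl-CoA and pyruvate carboxylase turns it into oxaloacetate, and both products meet at citrate synthase, the entry to the cycle. The pyruvate dehydrogenase kinases switch the complex off by phosphorylation and the phosphatases switch it on. In macrophages the cycle is also a source of signals and building blocks, since citrate can leave for fatty acid synthesis and cis-aconitate can be turned into itaconate by the enzyme encoded by Acod1, a gene best known for its induction by lipopolysaccharide. M2-like macrophages are known for oxidative metabolism, and the study asked how mitochondrial oxidative function bears on macrophage polarization.

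Among these genes Acod1 and Pcx stood apart. Acod1 was 4.08-fold and Pcx 2.55-fold higher after IL-4, and no other member was 1.5-fold higher. Pdk4 was 1.51-fold lower, and 30 of the 33 genes differed by less than 1.5-fold. The upstream sequences of Acod1 and Pcx are shown because these genes had the largest differences. Each is the 250 bases before a RefSeq transcription start on GRCm38.p6. Acod1 has 1 start in the RefSeq table, on the + strand of chromosome 14, and its upstream sequence is chr14:103046762-103047011. Pcx has 2, both on the + strand of chromosome 19, at chr19:4510222-4510471 and chr19:4594069-4594318, and the array does not tell which start was used. Capitals mark matches to any of the 4 motifs searched.
Acod1: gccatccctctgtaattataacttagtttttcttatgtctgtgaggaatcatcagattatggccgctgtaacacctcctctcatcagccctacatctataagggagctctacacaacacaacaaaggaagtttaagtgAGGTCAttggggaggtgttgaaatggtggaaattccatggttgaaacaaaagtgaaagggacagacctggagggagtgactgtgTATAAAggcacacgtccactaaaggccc
Pcx, upstream start: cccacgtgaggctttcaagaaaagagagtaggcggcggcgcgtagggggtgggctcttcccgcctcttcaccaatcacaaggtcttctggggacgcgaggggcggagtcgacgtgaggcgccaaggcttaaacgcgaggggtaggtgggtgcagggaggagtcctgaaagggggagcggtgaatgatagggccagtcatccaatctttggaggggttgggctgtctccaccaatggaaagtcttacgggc
Pcx, downstream start: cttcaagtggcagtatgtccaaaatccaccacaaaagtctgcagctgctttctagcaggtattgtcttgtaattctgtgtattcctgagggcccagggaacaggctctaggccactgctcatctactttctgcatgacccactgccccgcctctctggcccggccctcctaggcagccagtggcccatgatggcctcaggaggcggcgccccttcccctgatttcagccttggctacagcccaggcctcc

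The motifs were TTC and GAA separated by 4 bases, the palindrome bound by STAT6, the transcription factor that IL-4 activates, TTC and GAA separated by 3 bases, the palindrome of other STAT factors, AGGTCA, the hexamer bound by nuclear receptors such as PPARγ, and TATAAA, the TATA box. Both strands were searched. The RefSeq table held 41 upstream sequences for 30 of the 33 genes. The Acod1 sequence had AGGTCA from position -112 to -107 and TATAAA from -28 to -23, counted back from the start, and these matches do not overlap. AGGTCA occurred in 5 of the 41 member sequences and in 14.0% of all 32851, and TATAAA in 1 of 41 and in 12.4%. The palindrome with 4 bases between occurred in 2 of the 41, those of Fh1 and Idh3b, and in 5.85% of all, while that with 3 occurred in 0 of 41 and in 7.02%. The 2 Pcx sequences and the sequence of Pdk4 had no match. These are descriptions of letters in a short window, and the arrays measure no binding.

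All 33 genes were detected on both arrays, which here means well above background by the flag of the scanner software, so that none of their differences is a bound, and no spot of theirs was saturated. The software gave an error of 10% to 11.9% of the intensity. The error quoted below is the spot error, the SD of the log2 difference between spots of a probe printed repeatedly, taken as the median over such probes of similar signal. It lay between 0.039 and 0.11 for these genes, with a median of 0.053, and it covers neither the spread between cultures nor that between arrays. Intensities are background-subtracted and not scaled between arrays. Log2 differences are IL-4 minus untreated after subtraction of the 75th percentile of each array, which was 9.84 on the untreated and 9.94 on the IL-4 array.

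**Figure D1:**
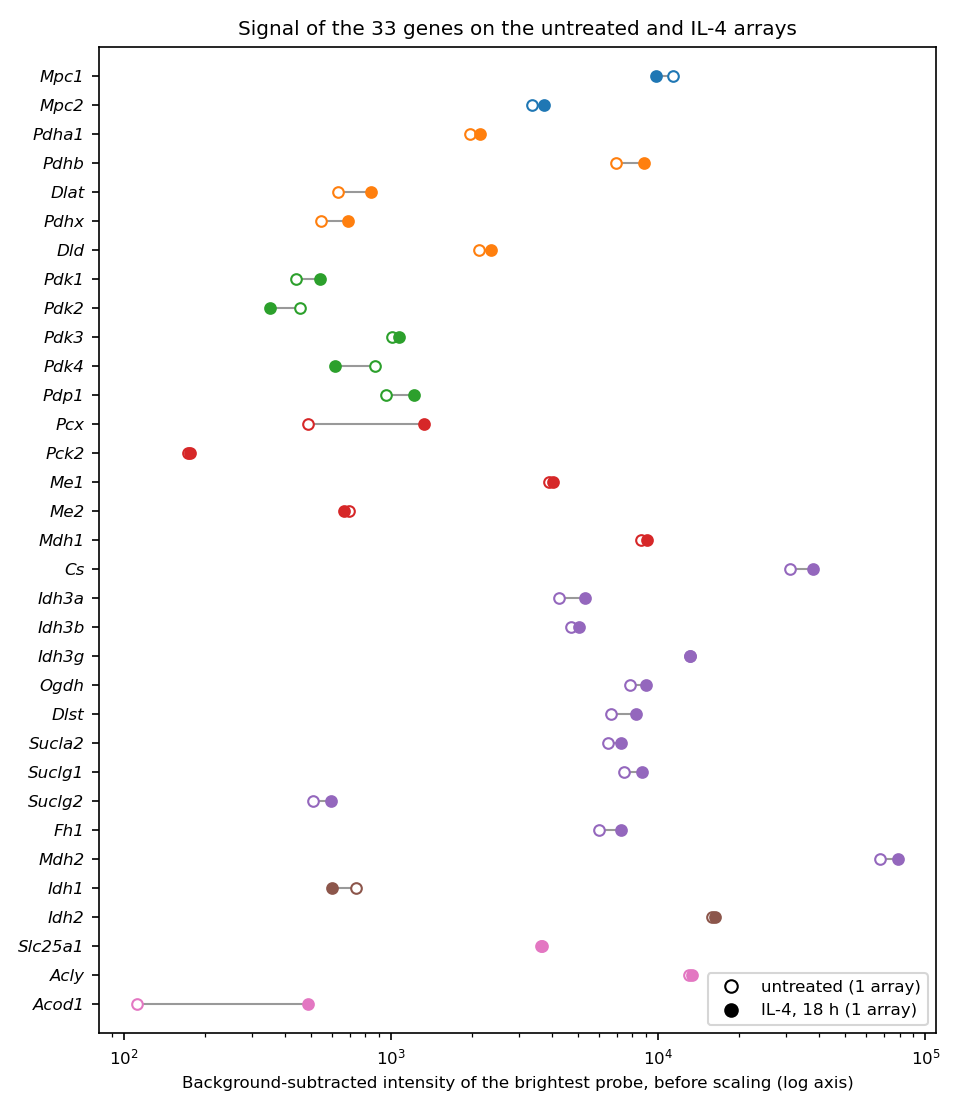
Background-subtracted intensity of each of the 33 genes on a log axis, with the untreated array as an open and the IL-4 array as a filled point, coloured by role. The distance within a gene can be read, but levels of different genes cannot be compared because their probes differ, and only Acod1 (112 to 489) and Pcx (487 to 1329) show a wide gap.

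The treatment and the cell type were checked first. The known IL-4 targets Arg1, Retnla, Chil3 and Mrc1 were each at least 5.33-fold higher on the array labelled IL-4. Of the 5 macrophage markers listed, 4 had a probe, and all 4 (Adgre1, Itgam, Csf1r and Mertk) were detected on both arrays, with summed intensities of 180504 and 201786 and a log2 ratio of the scaled sums of 0.06. Of these, Mertk had a log2 difference of -1.14 and Itgam of -0.71. Markers of other cells were also present. The paper reports high purity of its BMDMs by flow cytometry of macrophage surface proteins, without naming the cultures of the arrays. Sums over different probes cannot be compared between cell types. The 3 fibroblast markers were detected on both arrays, with summed intensities of 292279 and 284677 and a scaled log2 ratio of -0.14. Col1a2 made up most of this sum, and the markers differed, with log2 differences of -0.34 for Col1a1, -0.09 for Col1a2 and 0.51 for Pdgfra. The 4 neutrophil markers with a probe, of 5 listed, summed to 36145 and 35074, also a ratio of -0.14, and their log2 differences ran from -0.61 (Camp) to -0.10 (S100a9). Both of these ratios turn positive with spike-in scaling, which moves every gene alike. In contrast, none of the 3 B cell markers was detected on either array. Detected on both were also 3 of 4 eosinophil markers (not Epx), 2 of 3 dendritic cell markers, 1 of 4 T and NK cell markers and 1 of 3 mast cell and basophil markers. The scaled log2 ratios of the sums of these groups were 0.05, 0.02, -0.41 and -1.24, in that order. For T and NK cells and for mast cells and basophils the untreated sums were low, 398 and 267. Ncr1 of the former and Cpa3 of the latter were detected on the untreated array only. The part of these cells in the differences below was not tested, and in such bulk RNA fewer cells of a type and less RNA per cell cannot be told apart.

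At the 2-fold level, 2 of the 33 genes were higher and 0 were lower after IL-4. All genes, here and below, are 32448 entries, namely 20656 named genes and the accessions of probes without a name. For the 19743 of these detected on 1 array or both, the shares past 2-fold were 2.86% upward and 4.47% downward. For the 17242 detected on both they were 2.11% and 1.57%. At the 1.5-fold level, 2 members were higher and 1 lower, against 6.11% and 11.0% of the genes detected on 1 array or both and 4.68% and 5.60% of those on both. These counts are too small to read a share from. The median log2 difference of the 33 genes was 0.06, with quartiles of -0.07 and 0.20, beside a median of -0.01 with quartiles of -0.19 and 0.14 for all genes detected on both arrays. The gap was smaller among brighter genes. Of the 22 members with a mean scaled signal above 0, the median was 0.05 and 59.1% were above 0, beside 0.03 and 56.8% for the 8557 genes in that range.

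**Figure D2:**
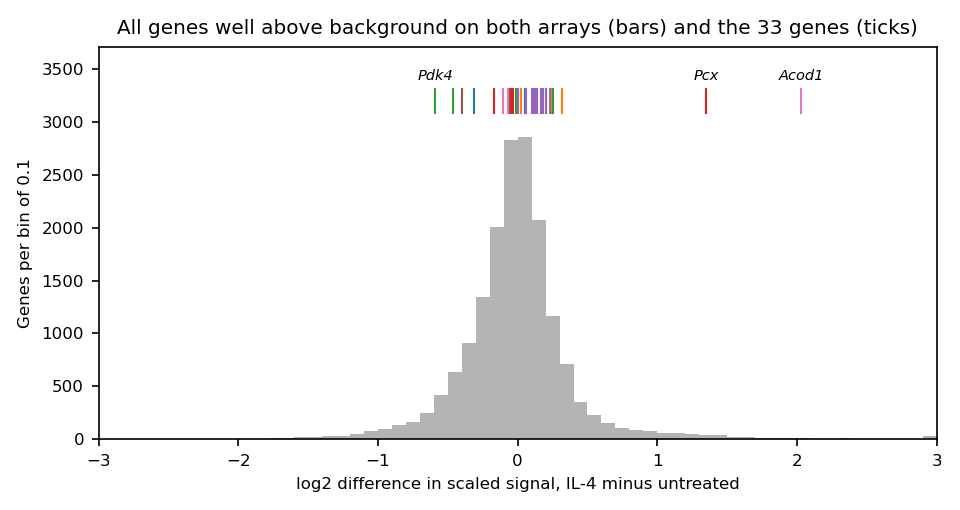
Number of genes per bin of 0.1 in the log2 difference, IL-4 minus untreated, for the 17242 genes detected on both arrays (bars), with the 33 genes as ticks above, coloured by role as in the plot of differences by role. The 22 genes above 3 and 2 genes below -3 are drawn in the end bins, and apart from Acod1 (2.03) and Pcx (1.35) on the right and Pdk4 (-0.59) on the left, the ticks lie within the bulk of all genes.

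Small differences depend on the scaling between arrays, which moves all genes together. The median over all genes detected on both arrays was -0.01 with the 75th percentile and between -0.07 and 0.31 with the 6 other scalings tried. Under all of these, 16 members were above 0 and 3 were below 0, namely Idh1, Pdk2 and Pdk4, whereas the other 14 changed sign with the scaling. Among all genes detected on both arrays, 36.5% were above 0 and 15.5% below 0 under all of them, and among those with a mean scaled signal above 0, 41.6% and 7.63%. These scalings moved the differences further up than down, so that a gene kept a sign above 0 more readily than one below it, and nothing is read from the split of 16 to 3. The number of members above the median of all genes, which a shift common to all genes cannot change, was 21 of 33, and 20 or 21 with the other scalings. A difference of more than 2 spot errors was found for 14 members upward and 7 downward. Of the 17023 genes with a spot error, 26.4% and 28.9% passed this limit in each direction, so that a difference beyond the spot error is common on these arrays.

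**Figure D3:**
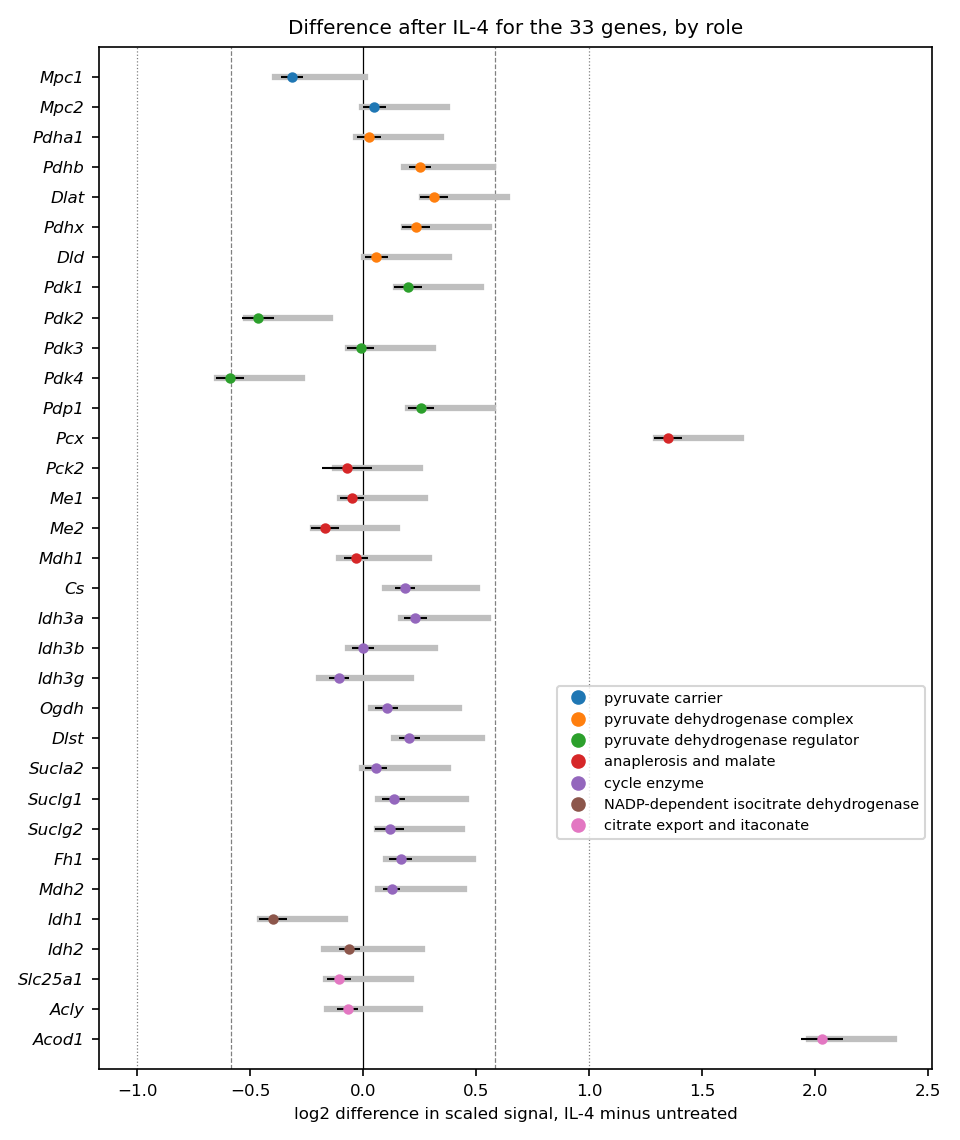
Log2 difference in scaled signal, IL-4 minus untreated, for each of the 33 genes by role, with the spot error as a black bar (1 SD), the range over 6 other scalings as a grey bar, and dashed and dotted lines at 1.5-fold and 2-fold. The grey bars of Acod1, Pcx and most cycle enzymes stay right of 0, those of Idh1, Pdk2 and Pdk4 stay left of it, and those of 14 genes cross it.

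Acod1, which encodes the enzyme that makes itaconate, had the largest difference of the 33 genes. Its probe was printed in 10 spots, most of them well above background on each array. The intensity of these spots was between 101 and 123 with a median of 112 without IL-4, and between 468 and 537 with a median of 487 after it. The spots of the arrays did not overlap, and the log2 difference was 2.03 ± 0.12 (SD, n = 10 spots of 1 array per group), ranging from 1.90 to 2.29 between spots. The difference was above that of 99.7% of the genes measured on both arrays. It lay between 1.97 and 2.35 with the other scalings, but the untreated signal was low, and with the normexp background correction the log2 difference was 1.39.

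Citrate leaves mitochondria through the carrier encoded by Slc25a1 and is split to cytosolic acetyl-CoA by ATP citrate lyase, encoded by Acly. Slc25a1 had an intensity of 3658 on the untreated and 3639 on the IL-4 array, a log2 difference of -0.11 with a spot error of 0.053. Acly went from 13034 to 13326, a difference of -0.07 after scaling, and its dimmer probe gave -0.22. Both genes changed sign with the scaling. The difference of Acod1 exceeded that of Slc25a1 by 2.14 on the log2 scale, with a spot error of 0.11, and by 1.48 to 2.27 with the other scalings and normexp. Here and below, a scaling that shifts all genes alike cannot change a gap between genes. Only quantile normalization, cyclic loess and normexp could move it. The pairs were chosen after the values were seen, and gaps between other genes were not measured beside them.

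Pcx encodes pyruvate carboxylase, which supplies oxaloacetate to the cycle. Its single spot had an intensity of 487 before and 1329 after IL-4. The log2 difference was 1.35, 22.1 times its spot error of 0.061, and was above that of 98.9% of the genes measured on both arrays. It lay between 1.20 and 1.67 under all alternatives, so that it stayed at least 2-fold in each. The other genes that exchange carbon with the cycle at oxaloacetate and malate had smaller differences, from -0.17 (Me2) to -0.03 (Mdh1). Pck2, the mitochondrial PEP carboxykinase, was printed in 10 spots with a median of 177 on the untreated and 178 on the IL-4 array. Its spots overlapped between the arrays, and the scaled log2 difference was -0.07 ± 0.11 (SD, n = 10 spots).

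Malic enzymes convert malate to pyruvate. The cytosolic enzyme Me1 had an intensity of 3881 and 4023 and a log2 difference of -0.05, and its 3 probes lay between -0.13 and -0.03. The mitochondrial enzyme Me2 had 696 and 663 and a difference of -0.17, 2.75 times its spot error. The cytosolic malate dehydrogenase Mdh1 had 8641 and 9063 and a difference of -0.03. The signs of these and of Pck2 changed with the scaling. The gap between Pcx and Pck2, which a shift common to all genes cannot change, was 1.42 with a spot error of 0.13. It lay between 1.33 and 1.42 in all other scalings and with normexp.

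**Figure D4:**
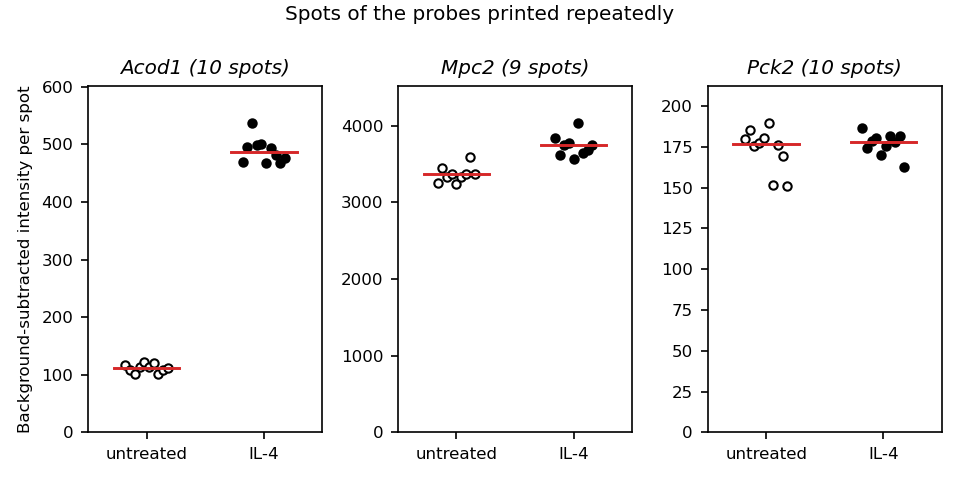
Background-subtracted intensity, before scaling, of every spot used of the 3 genes whose brightest probe was printed in 10 spots, on the untreated (open) and the IL-4 array (filled), with the median as a red line and axes from 0. The Acod1 spots of the arrays are separate (medians 112 and 487), the Pck2 spots overlap (177 and 178), and the Mpc2 spots (3368 and 3746) overlap slightly before scaling, 1 of its spots having been left out as an outlier.

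The mitochondrial pyruvate carrier is a complex of MPC1 and MPC2, and the values of the genes were not alike on these arrays. For scale, the log2 differences of all genes detected on both arrays had quartiles of -0.19 and 0.14. Mpc1 had intensities of 11387 and 9818 at its brighter probe, and of 8473 and 7193 at the other, giving log2 differences of -0.31 and -0.34. The spot error at this signal was 0.048, and with spike-in scaling the difference was 0.0067, so that its sign depended on the scaling. Mpc2 had medians of 3368 and 3746 over 9 spots and a scaled difference of 0.05 ± 0.07 (SD, n = 9 spots). Within the same arrays, the difference of Mpc1 was lower than that of Mpc2 by 0.36 (a log2 difference of -0.36 with a spot error of 0.071). This gap, which a shift common to all genes cannot change, lay between -0.39 and -0.33 with the other scalings and normexp.

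The 5 genes of the pyruvate dehydrogenase complex were all above 0 with the 75th percentile, and 4 of them under every scaling, all but Pdha1, beside 47.4% and 36.5% of all genes detected on both arrays. Among the brighter genes, to which Pdhb, Pdha1 and Dld belong, these shares were 56.8% and 41.6%. Pdhb, the E1 beta subunit, had intensities of 6915 and 8830 and a log2 difference of 0.25, and its second probe gave 0.26. Dlat, the acetyltransferase core, had 633 and 843 and a difference of 0.31, the largest of the complex. Pdhx, which anchors the dihydrolipoamide dehydrogenase to that core, had 546 and 689 and a difference of 0.24. These 3 lay 3.81 to 5.21 spot errors above 0, at 1.18-fold to 1.24-fold. Pdha1, the E1 alpha subunit that the kinases phosphorylate, had 1964 and 2141 and a difference of 0.03, and Dld, the dehydrogenase shared with the 2-oxoglutarate complex, had 2125 and 2373 and 0.06 at both probes. Dlat differed from Pdha1 by 0.29 with a spot error of 0.081, and by 0.29 to 0.33 in the other scalings and normexp.

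The regulators of the complex went in different directions. Pdk4, the kinase known for its induction by fasting and PPAR agonists, had intensities of 866 without and 617 with IL-4. Its log2 difference of -0.59, 9.63 times the spot error, was 1.51-fold, at the limit of 1.5-fold, and lay between -0.64 and -0.27 under all alternatives. Pdk2, the kinase found in most tissues, went from 454 to 353, a difference of -0.47. By contrast Pdk1, a kinase gene known as a target of hypoxia-inducible factor, went from 439 to 540, a difference of 0.20, and Pdk3 had 1005 and 1069 and a difference of -0.01. Pdp1, the catalytic subunit of a phosphatase that reactivates the complex, had 956 and 1222 and a difference of 0.25, with 0.16 and 0.17 at its other probes. Relative to Pdk1 on the same arrays, Pdk4 was lower by a log2 difference of -0.79 and Pdk2 by -0.66, with spot errors of 0.088 and 0.096. With the other scalings and normexp these lay between -0.81 and -0.59 and between -0.67 and -0.55.

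The 11 cycle enzymes had log2 differences between -0.11 and 0.23, with a median of 0.13. Of these, 9 were above 0, beside 47.4% of all genes detected on both arrays and 56.8% of the brighter ones. Under every scaling 8 were above 0, beside 36.5% of all genes and 41.6% of the brighter ones. Citrate synthase, Cs, had an intensity of 31160 on the untreated and 37950 on the IL-4 array and a difference of 0.18. The NAD-dependent isocitrate dehydrogenase is made of products of Idh3a, Idh3b and Idh3g. The catalytic subunit gene Idh3a went from 4237 to 5329, a difference of 0.23, the largest among the cycle enzymes. Idh3b had 4710 and 5046 and a difference of -2.05e-04, and Idh3g had 13194 and 13134 and -0.11, so that Idh3g was lower relative to Idh3a by a log2 difference of -0.34 with a spot error of 0.067.

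In the 2-oxoglutarate dehydrogenase complex, Ogdh had 7824 and 9011 and a difference of 0.10, and Dlst had 6676 and 8241 and a difference of 0.20. A dimmer probe of Ogdh gave -0.04. The succinyl-CoA synthetase genes were close to one another. Suclg1, the shared subunit, had 0.14, Sucla2, of the ATP-forming enzyme, 0.06, and Suclg2, of the GTP-forming enzyme, 0.12, with spot errors between 0.049 and 0.064. Suclg1 and Suclg2 differed by 0.02 with a spot error of 0.082, and the interval of this value over replicate cultures is not known. Fumarase, Fh1, went from 6010 to 7224, a difference of 0.17, and the mitochondrial malate dehydrogenase Mdh2 from 67517 to 78982, a difference of 0.13. With the scaling used for these values, the largest fold of a cycle enzyme was 1.17, that of Idh3a. This limit depends on the scaling, since the log2 difference of Idh3a, 0.23 here, lay between 0.17 and 0.55 with the other scalings.

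The NADP-dependent isocitrate dehydrogenases supply NADPH and were not higher. Idh1, the cytosolic enzyme, had an intensity of 741 on the untreated and 602 on the IL-4 array and a log2 difference of -0.40, 6.51 times its spot error, and stayed below 0 under every scaling, between -0.45 and -0.08. Idh2, the mitochondrial enzyme, had 15855 and 16286 and a difference of -0.06, whose sign changed with the scaling. Relative to Idh3a, Idh1 was lower by a log2 difference of -0.63 with a spot error of 0.079, and between -0.63 and -0.56 in the other scalings and normexp.

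The rest of the pathway was read from a list of 35 further genes, of which 33 had a probe, 29 were detected on both arrays, 1 on the untreated array only and 3 on neither. Of these, 1 was at least 2-fold higher, and 1 was at least 1.5-fold lower. Of all genes detected on 1 array or both, 2.86% and 11.0% passed these limits, and of those on both 2.11% and 5.60%. The counts are too small to read a share from. Acss1, which encodes the mitochondrial enzyme that makes acetyl-CoA from acetate, had an intensity of 1281 on the untreated and 3442 on the IL-4 array. Its log2 difference was 1.33, or 2.51-fold, with a spot error of 0.054, and lay between 1.27 and 1.65 under the other scalings. Its cytosolic counterpart Acss2 had 203 and 151, a difference of -0.52 with a spot error of 0.11. Sdhaf3, an assembly factor of succinate dehydrogenase, had 196 and 111 and a difference of -0.92, with -0.68 after normexp.

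The 4 subunit genes of succinate dehydrogenase, Sdha, Sdhb, Sdhc and Sdhd, had differences from 0.12 to 0.19. All 4 were above 0 under every scaling, beside 36.5% of all genes detected on both arrays and 41.6% of the brighter ones. Ldhb, the lactate dehydrogenase subunit that favours pyruvate formation, had 3780 and 2860 and a difference of -0.50, while Ldha, the other main subunit, had 112334 and 126906 and a difference of 0.08. Slc25a13, an aspartate and glutamate carrier, had 1216 and 1797 and a difference of 0.46. The median over the 29 genes was 0.03.

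**Figure D5:**
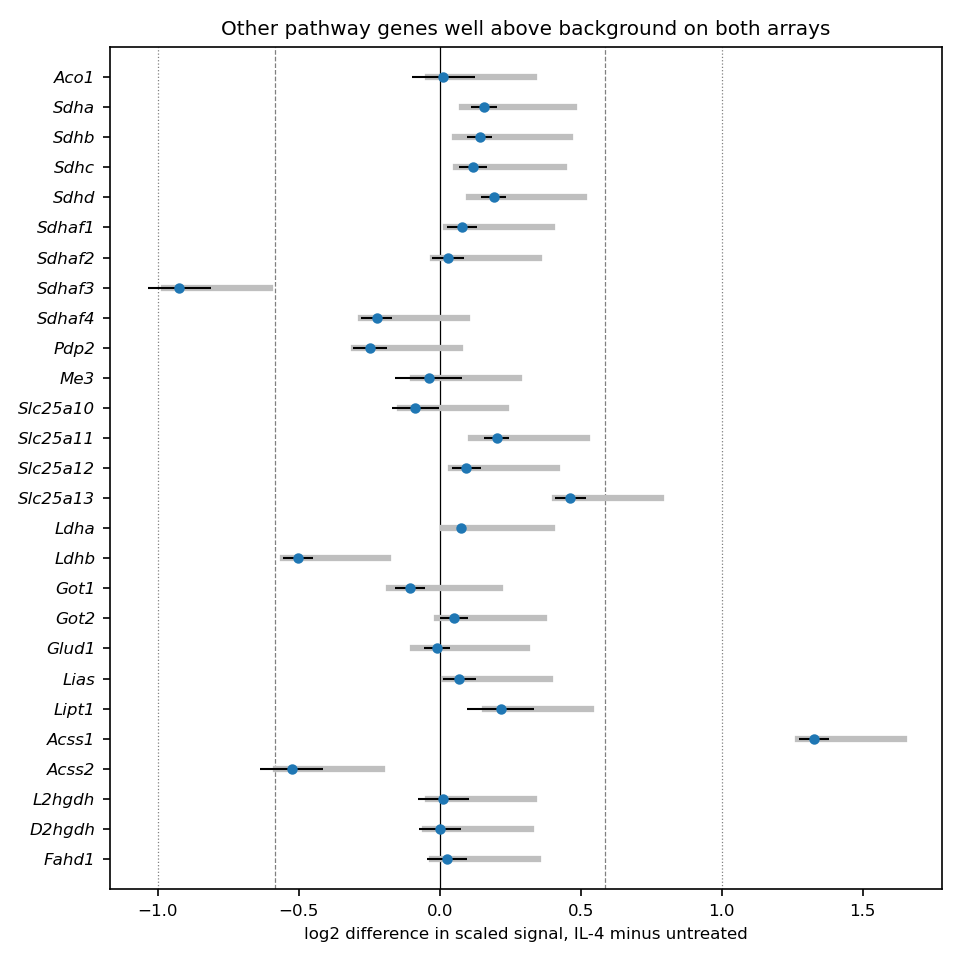
Log2 difference in scaled signal, IL-4 minus untreated, for 27 of the 29 further pathway genes detected on both arrays, with the spot error as a black bar (1 SD, not available for Ldha), the range over 6 other scalings in grey, and dashed and dotted lines at 1.5-fold and 2-fold. Acss1 (1.33) lies right of the 2-fold line and Sdhaf3 (-0.92) left of the 1.5-fold line, and the grey bars of 12 of the genes drawn cross 0.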

How the data were processed

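Per the file headers, the intensity deposited by the authors was made by Agilent Feature Extraction 10.10.1.1 and is background-subtracted and detrended within each array. It was not scaled between arrays. The design of the array used mm9. The deposited table of log2 values made by the authors was used as an alternative. Its scale and centring are not given in the sources used here, and its columns had medians of 0.16 (untreated) and 0.016 (IL-4). The software's flags of each spot were used as deposited, and a probe counted as well above background if most of its spots were. The IL-4 dose of the arrays is not given in the sources used here.

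Control spots and spots marked as outliers were left out. Spots of a probe were averaged as log2 values, from which the 75th percentile over the probes of that array was taken off. Probes were named by RefSeq accession through a GRCm38.p6 table (27229 of 39424 probes), and the upstream sequences are from RefSeq on GRCm38.p6. Probes without a name were kept in the counts over all genes, with each accession as 1 entry. The spot error was taken from probes printed in at least 10 spots with a signal within 1 log2 unit. It rests on 3 to 71 probes per gene. With 1 array per group no test was run, and folds of 2 and 1.5 were counted against all genes. Precision is limited by the number of arrays. The counting at 2-fold was tested on simulated arrays with large known changes and small noise, which checks the arithmetic only. That test did not cover the choice of probe, the 1.5-fold level or the spread between cultures.

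The named genes are all members of the list, the further pathway genes that were at least 1.5-fold changed with others of that list given after their values were seen, 4 IL-4 targets, and markers from the lists for cell types. Of the further pathway genes, 2 are counted but not reported here by name. The members and lists were chosen with earlier results of these data known. The pairs of genes set against each other, 15 in all, were chosen after the values were seen. Alternatives were 6 other scalings, normexp with an offset of 50 on the median pixel intensity (the files hold no mean), other filters on dim probes, other rules for several probes, outlier spots kept, and the authors' table. Python 3.11.15, numpy 2.4.6, pandas 2.3.3, matplotlib 3.10.9, R 4.3.3 and limma 3.58.1 were used.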

Additional observations from a re-analysis of the deposited data

How the results depend on the processing

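No paired analysis was possible because the labels give 1 array per condition, and for the same reason no array could be left out. The median log2 difference of the 33 genes, 0.06, was 0.27 when medians were aligned, 0.16 when nothing was scaled, 0.0024 with the 75th percentile of the probes detected on both arrays and 0.38 with scaling on 7 spike-in controls. All of these shift every gene alike, and the median of all genes moved with them, to 0.20, 0.08, -0.07 and 0.31. The number of members at least 1.5-fold lower, 1 with the 75th percentile (Pdk4, at 1.51-fold), was 0 with aligned medians, with no scaling, and with quantile normalization, cyclic loess, spike-in scaling and normexp. The counts at 2-fold, 2 higher and 0 lower, were the same in all 13 alternatives, and 2 members were at least 1.5-fold higher in each but spike-in scaling, where Dlat made 3. Not all alternatives could change these counts. The other filters on dim probes leave every member as it was, since all were detected on both arrays. Of the 33 genes, 19 kept their sign in every alternative, 16 above 0 and 3 below. Acod1 had the highest value, 2.35, with spike-in scaling and the lowest, 1.39, with normexp, where the cause was not tested. The low untreated signal of Acod1 limits the precision of its fold. In the authors' table the differences of the 33 probes equalled those from the scanner within 2.09e-04, after a constant of 5.64e-04.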

Other observations

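For some further pathway genes the probes disagreed, and the brightest probe alone does not describe the gene. D2hgdh, which encodes the D-2-hydroxyglutarate dehydrogenase, had a log2 difference (IL-4 minus untreated) of 0.0019 at its brightest probe and -0.47 at both dimmer ones (intensities of 81 and 62 for one, 73 and 56 for the other). The probes of Me3, a mitochondrial malic enzyme, that were detected (well above background) on both arrays had log2 differences of -0.04 and 0.37. Pck1, the cytosolic PEP carboxykinase, was detected on the untreated array only, at an intensity of 34, and was at least 1.32-fold lower on the IL-4 array. Ogdhl, Dhtkd1 and Pdpr were not detected on either array, so no fold is given.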
